A study of Mus musculus with 73 samples.

Results

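Wnt proteins are secreted, lipid-modified ligands that bind Frizzled receptors at the surface of the receiving cell. With the co-receptors Lrp5 and Lrp6 the complex stabilises beta-catenin, which acts with Tcf and Lef factors on target genes, while other ligands signal through Ror and Ryk receptors or planar polarity proteins. Sfrp and Wif1 proteins bind the ligands outside the cell, and Dkk proteins block the co-receptors. In the mouse embryo before gastrulation, Wnt3 in the posterior epiblast and visceral endoderm is needed for the primitive streak, and inhibitors from the anterior visceral endoderm, among them Dkk1, limit the signal at the other pole. The genes described here are the Wnt ligands, the Frizzled receptors and these secreted inhibitors, 38 genes chosen by name. A row was found for 37 of the 38, among 30546 genes in all: 19 ligands, 10 receptors and 8 inhibitors. Sfrp2 was not analysed here.

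Single mouse embryos at embryonic day 6.5 were each divided into epiblast, the source of the body, and extraembryonic ectoderm (ExE), a source of the placenta, and RNA from each was sequenced, in a study of how chromatin regulators keep parental imprints. The regulators were Dnmt1 (maintenance DNA methylation), Ehmt2 and Ehmt1 together (G9a-Glp, histone H3 lysine 9 methylation), Rnf2 (Polycomb complex PRC1) and Eed (Polycomb complex PRC2). BDF1 is a hybrid laboratory strain, CAST is a wild-derived strain, and the mother is named first in a cross. Every knockout was in BDF1xCAST embryos and was compared with wild-type BDF1xCAST embryos of the same tissue.

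Wild-type BDF1xCAST embryos gave 7 epiblast and 7 ExE libraries, and wild-type CASTxBDF1 embryos gave 4 of each. The Dnmt1 knockout gave 3 epiblast and 3 ExE libraries, G9a-Glp 6 and 8, Rnf2 6 and 5, and Eed 9 and 10. All BDF1xCAST zygotes were made by sperm injection, and the labels state Cas9 mRNA with 3 to 4 guides for the knockouts, so each embryo carries its own set of induced alleles. The CASTxBDF1 embryos came from natural mating, so the direction of the cross and the mode of fertilisation cannot be told apart. Each tissue was cut out by hand as 300 to 600 cells and stripped of visceral endoderm. In such bulk samples, fewer cells of a type and less RNA per cell cannot be told apart.

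The deposited counts hold only reads over positions that differ between BDF1 and CAST. They are given here as CPM, the gene's reads as counts per 1e6 such reads of the library. A gene with few such positions has few reads at any expression level, so levels are compared here between libraries and never between genes. Library totals ranged from 1141414 to 3976031 reads outside the Rnf2 groups and from 1847681 to 17653087 within them. Reads of Eed were lower in every Eed knockout library, with a mean of 9.38 CPM against 157 CPM in epiblast. Reads of Dnmt1 were below the wild-type range in 3 of 3 epiblast and 2 of 3 ExE libraries of that knockout, and those of Rnf2 in 4 of 6 and 0 of 5 (21.9 to 62.7 CPM in Rnf2 ExE, 21.4 to 65.9 in the wild type). With G9a-Glp, Ehmt1 was below the wild-type range in 2 of 6 epiblast and 5 of 8 ExE libraries, and Ehmt2 in 0 of 6 and 6 of 8. In epiblast, Rnf2 reads were also below the wild-type range in 4 of 6 G9a-Glp and 5 of 9 Eed libraries, where Rnf2 was not targeted. Their means were 33.3 and 32.3 CPM, beside 26.5 CPM with Rnf2 and 45.3 CPM in the wild type. The reads do not measure the protein, so the Rnf2 results of both tissues rest on the labels. Members called in 3 of these groups were also fitted without the 6 libraries that held the highest level of the targeted gene there. They were embryo 1 of the Dnmt1 group in ExE, embryos 2 and 7 of the G9a-Glp group in epiblast, and embryos 2, 5 and 6 of the Rnf2 group in ExE. The ExE marker sum (9 genes, among them Elf5, Cdx2 and Eomes) was 1460 to 2068 CPM in wild-type BDF1xCAST ExE and 112 to 266 CPM in epiblast. Pou5f1, a defining epiblast gene, had few usable reads (at most 1.61 CPM in wild-type BDF1xCAST epiblast) and was at 0 in all 7 ExE libraries. The visceral endoderm marker sum was 9.25 to 797 CPM in wild-type BDF1xCAST epiblast, highest in embryo 8, which also had 20567 genes with a read against at most 15118 in the other 6. In CASTxBDF1 epiblast the sum was at most 94.3 CPM in 3 embryos and 3085 CPM in embryo 2, without which the 10 members called between the tissues of that cross passed as well.

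In wild-type embryos the family was divided between the tissues. Of the 8 genes with enough reads to be tested in BDF1xCAST, 6 were lower and 1 was higher in ExE than in epiblast at an adjusted p under 0.05, where 56.7% of all 9340 genes tested passed (28.3% higher, 28.4% lower). Of the 11 tested in CASTxBDF1, 8 were lower and 2 higher, against 45.0% of 9767 genes (22.1% higher, 23.0% lower). Without the filter on low counts, 16 of 35 were lower and 4 higher in BDF1xCAST (35.6% of all genes passed, 12.9% higher and 22.7% lower). In CASTxBDF1, 11 of 33 were lower and 4 higher (27.0% of genes, 12.1% higher and 14.8% lower). The median difference of the genes tested was -1.89 (log2) in BDF1xCAST and -1.88 in CASTxBDF1, beside -0.01 over all genes in both. Some members passed the filter only through 1 tissue, so only 1 direction could be called. In BDF1xCAST, Wnt6 had 1 read over the epiblast libraries, and Sfrp1 had 16 over the ExE libraries. In CASTxBDF1, Wnt6 and Wnt7b had 1 read each in epiblast, and Wnt3, Wnt5a and Sfrp1 had 0, 2 and 16 in ExE. The counts with the filter and the medians include these members.

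Among the ligands, Wnt6, known from trophoblast and surface ectoderm, was an ExE gene. Its lowest, median and highest levels in the 7 BDF1xCAST ExE libraries were 9.31, 10.7 and 25.7 CPM, and 6 of the 7 epiblast libraries had no read. The difference was 6.96 ± 0.54 (log2 fold change ± SE, edgeR quasi-likelihood test, adjusted p = 6.45e-09) and 6.75 ± 0.65 in CASTxBDF1 (adjusted p = 2.45e-06). Wnt7b, a ligand of placental development, had a median of 16.1 CPM in BDF1xCAST ExE, with a highest value of 26.9 CPM, and a median of 0 in epiblast. Wnt7b passed in CASTxBDF1 (6.94 ± 0.70, adjusted p = 3.76e-06) and, in BDF1xCAST, only without the filter (5.74, adjusted p = 7.55e-08). Wnt10a, which lies 6.7 kb from Wnt6 on chromosome 1, had reads in 6 of 7 BDF1xCAST ExE libraries and in 0 of 7 epiblasts. Its mean of 2.37 CPM in ExE was at least 13.3-fold higher than a floor of 3 reads over the whole epiblast group allows (without the filter, adjusted p = 4.19e-05). Wnt11 (11 reads in the 7 ExE libraries) and, in CASTxBDF1, Wnt4 also passed as higher in ExE only without the filter.

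Wnt3, Wnt5a, Wnt5b, Wnt8a and Wnt9b had the opposite pattern. Wnt3 ranged from 2.31 to 22.1 CPM in BDF1xCAST epiblast (median 7.62), and 5 of 7 ExE libraries had no read. In CASTxBDF1, Wnt3 was at 11.9, 26.3, 7.79 and 5.43 CPM in epiblast and at 0 in all 4 ExE libraries, at least 61.0-fold lower. Wnt5a, a ligand of the beta-catenin-independent branch, had a median of 15.2 CPM in BDF1xCAST epiblast and of 0 in ExE, and was lower in CASTxBDF1 ExE by 5.69 ± 0.86 on the log2 scale (adjusted p = 0.000117). Wnt5b was at 13.9 to 50.3 CPM in epiblast and at most at 8.00 CPM in ExE (-2.79 ± 0.38, adjusted p = 5.81e-06; -1.58 ± 0.36 in CASTxBDF1, adjusted p = 0.00281). The Wnt5b locus overlaps Fbxl14 in the annotation, whose 1495 reads stand beside 2791 of Wnt5b, so its values are uncertain. Wnt8a, Wnt9b, Wnt2b, Wnt7a and, in BDF1xCAST, Wnt3 and Wnt5a passed as lower in ExE only without the filter, and Wnt9b, 24.4 kb from Wnt3 on chromosome 11, was at 0 in all 7 BDF1xCAST ExE libraries.

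The levels of Wnt3 and Wnt8a, a ligand of the early streak, differed between wild-type epiblasts of the same age. Embryos 6, 7 and 8 held the highest Wnt8a levels, 10.3, 7.99 and 13.7 CPM, while the other 4 lay between 0.422 and 2.02 CPM. The summed level of 6 streak and mesoderm markers, among them T and Mixl1, was 676, 355 and 1044 CPM in those embryos and 15.9 to 380 CPM in the other 4. Embryo 8 also had the highest visceral endoderm sum. The knockout epiblasts are compared with these 7 libraries, and the part of this spread in the differences was not tested.

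Of the receptors with enough reads, 4 were lower in ExE. Fzd7 had 55.6 to 83.5 CPM in BDF1xCAST epiblast and 7.90 to 25.3 CPM in ExE (-2.06 ± 0.25, adjusted p = 1.33e-06). Fzd5 had 28.1 to 45.5 CPM in epiblast and 1.72 to 7.00 CPM in ExE (-3.00 ± 0.29, adjusted p = 8.42e-08). Fzd3, a receptor of the polarity branch, had 29.7 to 60.4 CPM in epiblast and 8.96 to 19.0 CPM in ExE (-1.72 ± 0.21, adjusted p = 1.32e-06). None of these 3 ranges overlapped. Fzd6 also passed (-1.48 ± 0.40, adjusted p = 0.00388), but its counts equalled those of the overlapping gene Gm41310 in 45 of the 69 libraries where that gene had reads, so the 2 genes cannot be told apart. All 4 were lower in CASTxBDF1 ExE as well, Fzd7 by 2.40 ± 0.43, Fzd5 by 3.11 ± 0.40, Fzd3 by 1.26 ± 0.36 and Fzd6 by 1.88 ± 0.51 on the log2 scale (highest adjusted p = 0.0116, for Fzd3). Fzd1 was at 7.17 to 13.8 CPM in ExE and at 2.42 to 13.8 CPM in epiblast and did not pass (0.64 ± 0.36, adjusted p = 0.133). Fzd2 and Fzd8 passed as lower in ExE only without the filter.

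Of the inhibitors, Sfrp1 was an epiblast gene in the wild type, at 28.7 to 56.9 CPM (median 38.8) in BDF1xCAST epiblast and at 0 in 4 of 7 ExE libraries, with a maximum of 3.67 CPM. The difference was -5.58 ± 0.51 (adjusted p = 5.18e-08) and -4.78 ± 0.60 in CASTxBDF1 (adjusted p = 3.36e-05). Dkk1 had a median of 2.29 CPM in epiblast, and Dkk4 had 3.27 CPM. Both were at a median of 0 in ExE and passed as lower there only without the filter.

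**Figure D1:**
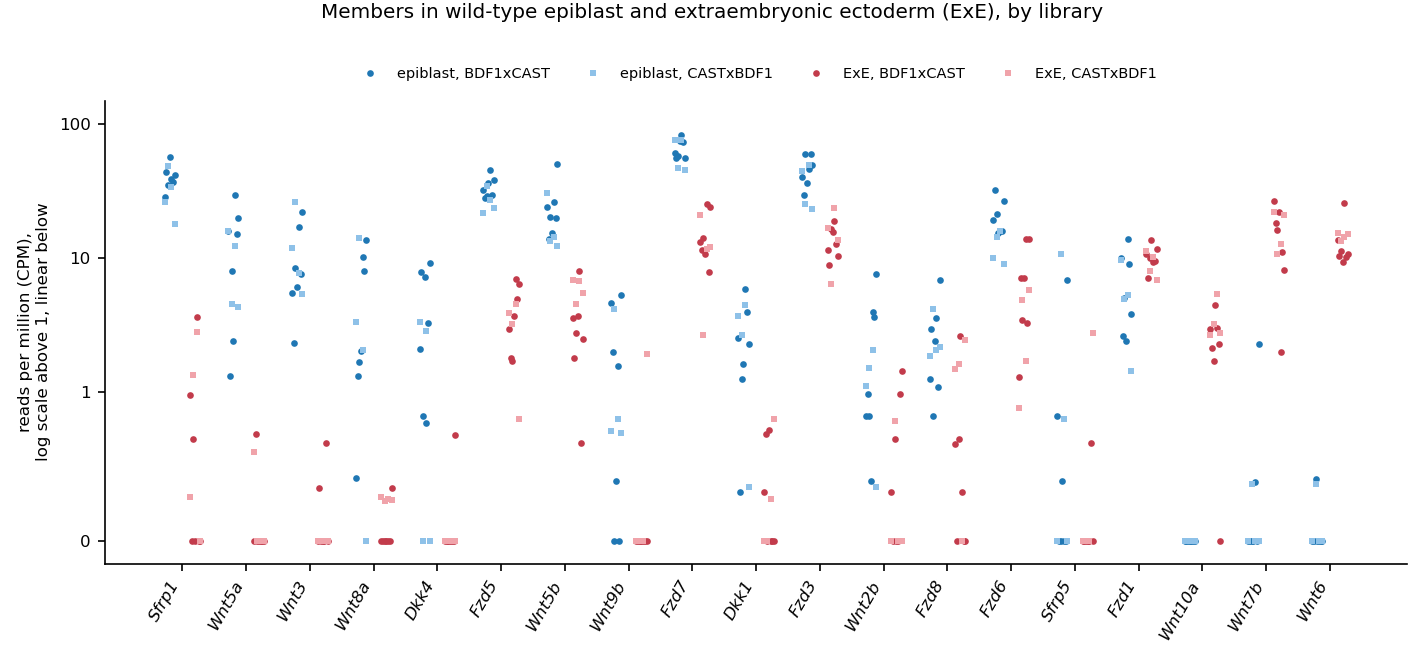
Counts per 1e6 reads (CPM, log scale above 1 and linear below) of the 19 genes with a mean of at least 1 CPM in a wild-type BDF1xCAST tissue, 1 point per library, epiblast in blue and ExE in red. Genes are ordered by the ratio of the BDF1xCAST means, each with 0.5 CPM added, from Sfrp1 (median 38.8 CPM in epiblast, 0 in ExE) to Wnt6 (median 10.7 CPM in ExE, 0 in epiblast).

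The rest of the pathway was measured beside the members. Of 65 other pathway genes with a row, 38 were tested in BDF1xCAST, and 23 of these were lower and 4 higher in ExE, with a median of -1.13 (log2), where 56.7% of all genes passed and 28.4% were lower. Lef1, a nuclear partner of beta-catenin, fell from a mean of 98.04 to 0.341 CPM, and the receptor gene Ror1 from 34.6 to 0.143 CPM. The streak gene Mixl1 fell from 102 to 0.593 CPM, and Sp8, a target, from 22.4 to 0.143 CPM. In CASTxBDF1, 14 of 37 were lower and 5 higher (45.0% of all genes passed, 23.0% lower), and the same 4 genes had the largest differences.

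With loss of Eed, 11 members were tested in ExE. Of these, 5 were higher and 3 lower than in wild-type ExE, where 40.8% of 10058 genes passed, 22.7% higher and 18.1% lower. Without the filter, 15 of 31 were higher and 3 lower, where 24.3% of all genes passed, 16.3% higher and 8.00% lower. Loss of Rnf2 gave 2 higher and 2 lower of 10 tested (22.2% of 9506 genes, 12.2% higher and 9.98% lower). Without the filter it gave 4 higher and 2 lower of 32 (11.3% of genes, 6.92% higher and 4.42% lower). The Eed and Rnf2 comparisons share the 7 wild-type libraries, so their values are given side by side. Wnt4, Wnt3 and Sfrp1 had 0, 3 and 16 reads over those libraries. All of them with Eed, and Wnt4 and Sfrp1 with Rnf2, passed the filter only through the knockout libraries, so only a rise could be called.

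Wnt4, a ligand of kidney and gonad development, had 0 reads in all 7 libraries of wild-type BDF1xCAST ExE, which allows at most 0.148 CPM over the group (3 reads, counting error only). In Eed ExE it ranged from 21.0 to 91.8 CPM with a median of 41.6 (n = 10). In Rnf2 ExE it was at 7.44, 18.2, 7.04, 9.88 and 7.72 CPM. Every knockout library of both genes was above every wild-type library. The mean was 48.8 ± 25.7 CPM (SD) in Eed ExE, at least 329.7-fold higher than in the wild type (edgeR adjusted p = 7.05e-08). It was 10.1 ± 4.69 CPM in Rnf2 ExE, at least 68.0-fold higher (adjusted p = 3.56e-05). Rnf2 embryos 2, 5 and 6, which had the most Rnf2 reads of the group, had 7.04 to 9.88 CPM of Wnt4, and without them the call held with embryos 4 and 7 alone (edgeR, 8.73, adjusted p = 0.00399). In epiblast, Wnt4 was at most at 4.39 CPM in every Eed and Rnf2 library, and the Eed effect was larger in ExE than in epiblast (interaction 7.99 ± 2.33, adjusted p = 0.0181). The same term for Rnf2 was 5.89 ± 2.24 (adjusted p = 0.129). In CASTxBDF1 wild-type ExE, 2 of 4 libraries had Wnt4 reads, at 0.806 and 3.57 CPM.

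The windows from 250 bases before to 50 bases after the annotated start (RefSeq, GRCm38.p6) are shown for 5 members that moved in the Polycomb knockouts, Wnt4 and Wnt3, which were higher in Eed ExE, Wnt6 and Fzd7, which were lower, and Dkk1 of the epiblast. They are printed 5′ to 3′ on the gene's strand with each CpG in capitals. The Wnt4 window is chr4:137277385-137277684 (plus strand), Wnt3 chr11:103773925-103774224 (plus), Wnt6 chr1:74771642-74771941 (plus), Fzd7 chr1:59481897-59482196 (plus) and Dkk1 chr19:30549447-30549746 (minus). The Wnt6 window belongs to a start inside the gene, whose annotated span begins at 74754342.
Wnt4: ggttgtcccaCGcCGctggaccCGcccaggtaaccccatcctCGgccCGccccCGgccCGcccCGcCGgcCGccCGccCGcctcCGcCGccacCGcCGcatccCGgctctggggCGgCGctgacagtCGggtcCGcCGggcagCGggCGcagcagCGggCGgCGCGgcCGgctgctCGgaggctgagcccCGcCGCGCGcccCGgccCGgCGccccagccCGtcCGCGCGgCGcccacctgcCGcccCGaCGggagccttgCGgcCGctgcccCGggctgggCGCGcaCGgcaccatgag
Wnt3: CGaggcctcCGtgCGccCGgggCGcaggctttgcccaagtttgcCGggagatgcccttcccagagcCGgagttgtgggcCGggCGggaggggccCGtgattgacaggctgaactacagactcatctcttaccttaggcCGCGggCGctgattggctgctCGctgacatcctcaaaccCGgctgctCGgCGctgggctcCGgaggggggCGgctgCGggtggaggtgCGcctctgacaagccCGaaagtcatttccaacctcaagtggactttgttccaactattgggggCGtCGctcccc
Wnt6: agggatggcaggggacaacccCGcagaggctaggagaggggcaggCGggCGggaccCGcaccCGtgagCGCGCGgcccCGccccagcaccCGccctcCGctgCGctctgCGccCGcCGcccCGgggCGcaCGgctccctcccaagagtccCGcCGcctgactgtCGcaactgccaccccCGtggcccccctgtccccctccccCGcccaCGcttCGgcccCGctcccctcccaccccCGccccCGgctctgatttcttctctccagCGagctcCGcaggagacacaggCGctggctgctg
Fzd7: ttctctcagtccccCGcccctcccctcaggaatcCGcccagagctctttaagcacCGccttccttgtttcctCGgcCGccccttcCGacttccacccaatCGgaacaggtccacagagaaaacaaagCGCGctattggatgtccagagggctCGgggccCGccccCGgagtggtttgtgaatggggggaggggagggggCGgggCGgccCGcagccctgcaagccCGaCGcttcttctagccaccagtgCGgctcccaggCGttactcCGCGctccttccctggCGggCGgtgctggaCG
Dkk1: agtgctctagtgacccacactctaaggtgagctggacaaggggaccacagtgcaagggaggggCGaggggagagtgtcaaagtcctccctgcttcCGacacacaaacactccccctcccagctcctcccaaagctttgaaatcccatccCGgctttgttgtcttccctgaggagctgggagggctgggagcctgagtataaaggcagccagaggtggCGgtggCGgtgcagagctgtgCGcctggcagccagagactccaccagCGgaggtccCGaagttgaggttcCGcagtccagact
The Wnt4 window holds 51 CpG, and 0.715% of all 32851 windows hold as many. Wnt3 and Fzd7 hold 24 each (19.98% of windows hold as many), Wnt6 holds 31 (10.6%) and Dkk1 holds 9 (45.8%). A window was given for 26 of the 38 members, 29 windows in all, with 4 to 58 CpG and a median of 26, against a median of 7 over all windows. Wnt9a, with 58 CpG, and Fzd9, with 53, are as rich as Wnt4. Their 52 and 197 reads over all 72 libraries are not compared with those of Wnt4, as reads depend on the polymorphic positions of each gene. The sequence CTTTGA, the core of the Tcf and Lef motif, read on both strands, is in the windows of Fzd1 and Dkk1, 1 of 2 of Wnt11 and 1 of 3 of Wnt5b, and in 16.0% of all windows.

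Wnt3 had reads in 2 of 7 wild-type ExE libraries, at 0.358 and 0.658 CPM. In Eed ExE it was at 1.95 to 15.5 CPM with a median of 5.80, above every wild-type library (4.97 ± 0.65, adjusted p = 4.64e-06). In Rnf2 ExE it was at 1.53, 0.0974, 1.62, 1.59 and 0.143 CPM and was tested only without the filter (2.41 ± 1.03, adjusted p = 0.121). Its neighbour Wnt9b, at 0 in wild-type ExE, had reads in 7 of 10 Eed libraries, from 0.729 to 9.05 CPM, at least 16.0-fold higher on average. Wnt9b passed only without the filter (adjusted p = 0.00561). In wild-type epiblast Wnt3 was at a mean of 9.85 CPM, and in Eed epiblast at 6.99 CPM (-0.59 ± 0.41, adjusted p = 0.265). The Wnt3 effect of Eed loss was larger in ExE than in epiblast (interaction 5.56 ± 0.80, adjusted p = 5.33e-06).

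Wnt6, the ligand of the wild-type ExE, fell. The Eed libraries lay between 0.945 and 7.29 CPM with a median of 3.52, below the wild-type minimum of 9.31 CPM in 10 of 10 (-1.99 ± 0.33, adjusted p = 6.41e-05). In Rnf2 ExE, Wnt6 was at 6.42, 6.04, 5.41, 6.47 and 13.1 CPM and did not pass (-0.82 ± 0.29, adjusted p = 0.0540). The other ExE ligand, Wnt7b, was at a mean of 18.7 CPM in Eed ExE against 15.0 (0.13 ± 0.35, adjusted p = 0.796). The summed ExE markers were lower in Eed ExE, at 554 to 1189 CPM against 1460 to 2068, and those of the ectoplacental cone (4 genes, with Tpbpa and Prl3d1 at 0 in all 7 wild-type libraries) were at 773 to 1848 against 252 to 913 CPM. In Rnf2 ExE the sums were 1014 to 1897 and 532 to 1763 CPM. The sum of visceral endoderm markers (14 genes), a tissue stripped off at dissection, was 41.0 to 82.7 CPM in Eed ExE and 23.7 to 50.2 CPM in Rnf2 ExE against 12.8 to 28.6 CPM, and the sum of the anterior markers Hhex, Lefty1 and Cer1 was 2.34 to 8.38 and 1.46 to 4.00 CPM against at most 0.717 CPM. The part of these cell types in the differences of Wnt6 and of the other members in ExE was not tested.

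Fzd7 and Fzd1 fell in both knockouts. Fzd7 was at 1.56 to 5.67 CPM in Eed ExE (median 3.06) and at 2.95, 2.44, 5.95, 4.88 and 4.14 CPM in Rnf2 ExE, all below the wild-type minimum of 7.90 CPM. The differences were -2.36 ± 0.30 (adjusted p = 2.52e-06) and -2.04 ± 0.34 (adjusted p = 0.000710). Fzd1 fell from a mean of 10.3 to 4.20 CPM in Eed ExE (-1.49 ± 0.41, adjusted p = 0.00643) and to 4.82 CPM in Rnf2 ExE (-1.24 ± 0.36, adjusted p = 0.0230), with overlapping ranges. The Rnf2 call of Fzd1 was lost without embryo 2 (adjusted p = 0.0551), without embryo 6 (0.0533) without embryos 2, 5 and 6 together (0.123) and with all groups in 1 fit (0.118). Fzd3 and Fzd6 rose with loss of Eed. Fzd3 was at 19.8 to 36.7 CPM against at most 19.0 in the wild type (0.80 ± 0.18, adjusted p = 0.00159), and Fzd6, with the reservation above, at 15.1 to 38.7 against at most 14.0 CPM (1.71 ± 0.34, adjusted p = 0.000463). Fzd6 in Rnf2 ExE was at 14.1 to 18.03 CPM (1.13 ± 0.40, adjusted p = 0.0548). The Eed effect on Fzd7 was more negative in ExE than in epiblast (interaction -1.76 ± 0.34, adjusted p = 0.000361), and that of Rnf2 was as well (-1.32 ± 0.38, adjusted p = 0.0292), though the Rnf2 term was lost without embryo 2 (adjusted p = 0.0679), without embryo 4 (0.0715), without embryos 2, 5 and 6 (0.116), with the Rnf2 libraries thinned (0.0643), with all groups in 1 fit (0.0776) and with the embryo as a block (0.341).

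The inhibitor Sfrp1 rose in ExE with loss of either gene. It was at 14.7 to 27.3 CPM in Eed ExE (median 22.3) and at 7.74, 9.55, 8.12, 4.51 and 15.1 CPM in Rnf2 ExE, against at most 3.67 CPM in wild-type ExE. No knockout library overlapped the wild type (4.58 ± 0.49, adjusted p = 3.58e-07, and 3.46 ± 0.65, adjusted p = 0.00157). The effect was larger in ExE than in epiblast for Eed (interaction 3.82 ± 0.47, adjusted p = 2.18e-07) and for Rnf2 (3.15 ± 0.59, adjusted p = 0.00107). Sfrp1 and Wnt3 are epiblast genes in the wild type, and the summed epiblast markers were 497 to 983 CPM in Eed ExE against 744 to 1245 CPM in wild-type ExE. The part of epiblast cells in the rise of either gene was not tested. Sfrp5, known from visceral endoderm, and Dkk3 passed as higher in Eed ExE only without the filter, where every Eed library was also above every wild-type library in the visceral endoderm sums given beside Wnt6. Sfrp5 was at 1.31 to 5.89 CPM in 10 of 10 libraries (adjusted p = 5.35e-05) and Dkk3 at a mean of 4.17 against 0.760 CPM (adjusted p = 0.0117). Also without the filter, Wnt5a, Wnt7a, Wnt9a, Wnt10b, Wnt16 and Fzd2 passed as higher in Eed ExE at means of 0.502 to 1.73 CPM, and Sfrp5 in Rnf2 ExE at 0.943 CPM.

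**Figure D2:**
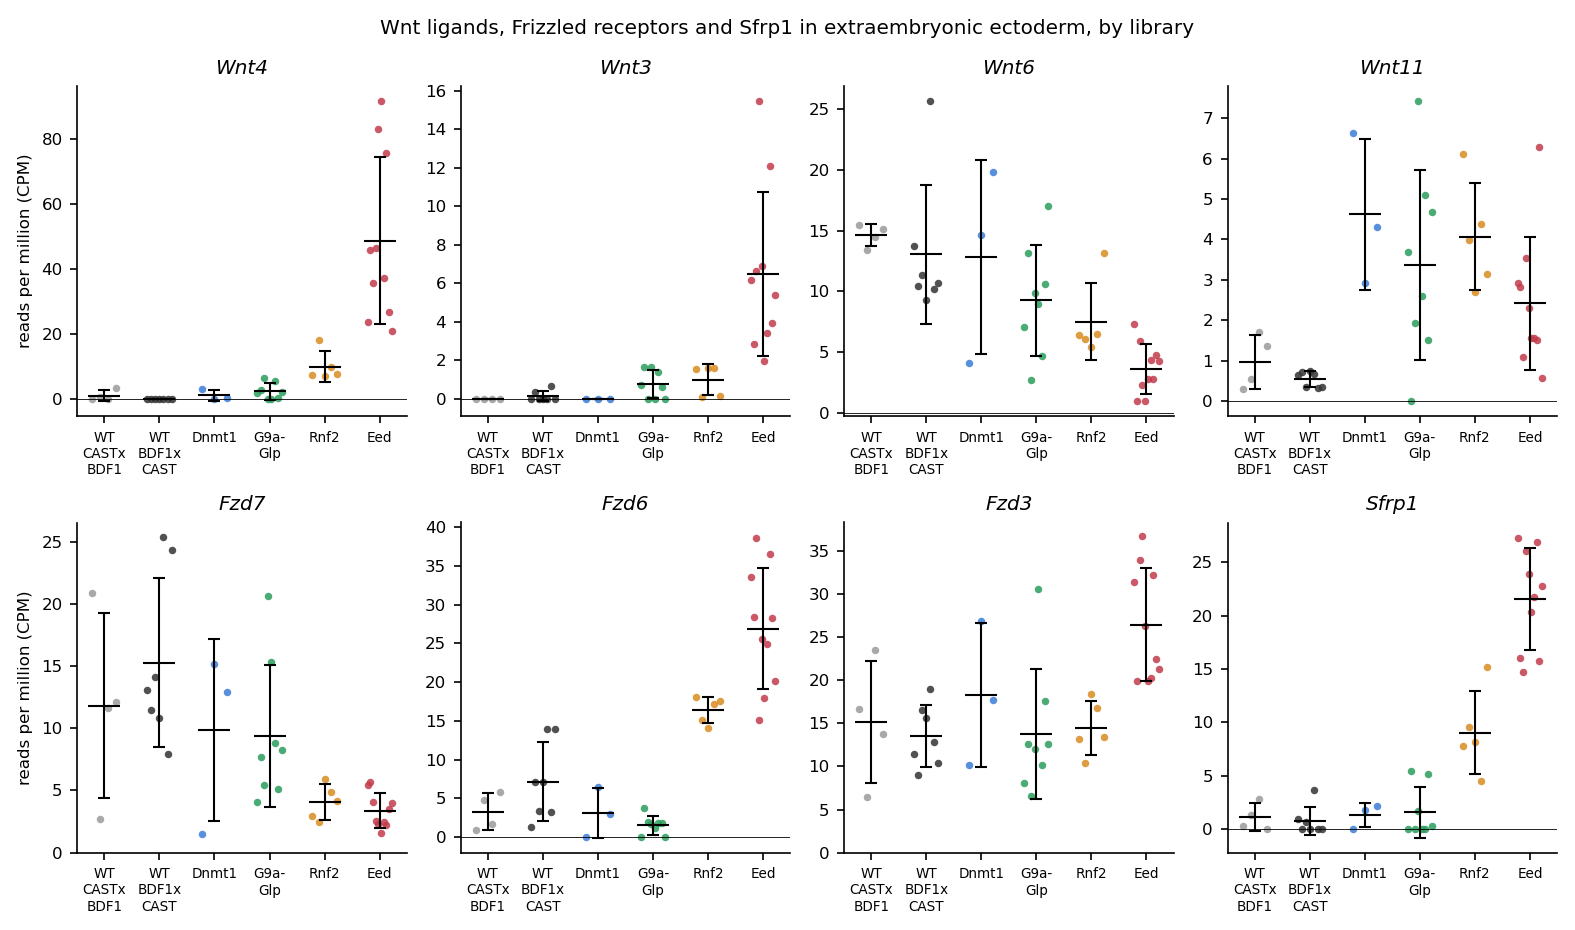
Counts per 1e6 reads (CPM) in ExE for 8 members, 1 point per library, with the group mean (wide bar) and SD (capped line) for the wild-type crosses and the 4 knockouts. In the Eed group Wnt4, Wnt3, Fzd3, Fzd6 and Sfrp1 lie above, and Wnt6 and Fzd7 below, every wild-type BDF1xCAST library. Wnt11 is higher in the means of all 4 knockouts.

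A direct comparison of the Polycomb knockouts in ExE, which uses no wild-type library, gave 6 higher and 1 lower with Eed of 14 tested (14.4% of 10735 genes, 9.42% higher and 4.94% lower). Wnt4 was higher in Eed than in Rnf2 ExE by 2.13 ± 0.37 (log2, adjusted p = 0.00140), Wnt3 by 2.70 ± 0.59 (adjusted p = 0.00510) and Sfrp1 by 1.17 ± 0.26 (adjusted p = 0.00589). Fzd3 was higher by 0.79 ± 0.19 (adjusted p = 0.0104), Dkk3 by 2.41 ± 0.65 (adjusted p = 0.0176) and Fzd6 by 0.60 ± 0.20 (adjusted p = 0.0467), and Wnt6 was lower by 1.15 ± 0.37 (adjusted p = 0.0433). With Rnf2 embryos 2, 5 and 6 left out, 2 Rnf2 libraries remained and 1 of the 7 calls held, that of Wnt3. Wnt3 and Dkk3 had 33 and 24 reads over all Rnf2 ExE libraries. Both passed the filter only through the Eed libraries, so they could only be called higher with Eed. The calls of Wnt6 and Fzd6 were also lost in every fit without 1 Rnf2 library (adjusted p up to 0.186 and 0.0975), and that of Dkk3 without embryo 4 (0.0538), 6 (0.0576) or 7 (0.0502). Wnt6 was lost with library total scaling (0.0641) and thinned Rnf2 libraries (0.0841), and Fzd6 without the filter (0.105), with thinned Rnf2 libraries (0.0695) and with all groups in 1 fit (0.289).

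In epiblast, Fzd5 and Fzd7 were lower and Fzd6, which cannot be told apart from Gm41310, was higher in both Polycomb knockouts, which share their wild-type libraries. Loss of Eed gave 2 higher and 2 lower of 8 members tested (36.8% of 9820 genes, 18.0% higher and 18.8% lower), and loss of Rnf2 gave 1 higher and 3 lower of 9 (30.9% of 10134 genes, 18.2% higher and 12.7% lower). Without the filter, 3 were higher and 7 lower of 35 with Eed (17.2% of genes, 8.16% higher and 9.03% lower). With Rnf2, 3 were higher and 6 lower of 37 (9.69% of genes, 6.98% higher and 2.71% lower). Fzd5 was at 10.3 to 26.2 CPM in Eed epiblast (median 16.0) and at 7.39 to 26.1 CPM in Rnf2 epiblast (median 13.4), all below the wild-type minimum of 28.1 CPM. The differences were -1.10 ± 0.19 (adjusted p = 0.000206) and -1.22 ± 0.27 (adjusted p = 0.00303). Fzd7 fell from a mean of 65.9 to 50.1 CPM with Eed (-0.59 ± 0.17, adjusted p = 0.0109) and to 40.4 CPM with Rnf2 (-0.73 ± 0.19, adjusted p = 0.00866), with overlapping ranges. The Eed call of Fzd7 was lost with library total scaling (adjusted p = 0.0794) and with all groups in 1 fit (0.0585). Fzd6 was higher, at 27.6 to 77.6 CPM with Eed (1.27 ± 0.22, adjusted p = 0.000208) and at 42.0 to 51.2 CPM with Rnf2 (1.14 ± 0.18, adjusted p = 0.000290), against 15.3 to 32.0 CPM in the wild type, which only the Eed range overlaps. Fzd1 fell with Rnf2 (2.40 against 6.71 CPM, -1.51 ± 0.46, adjusted p = 0.0207).

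Sfrp1 was higher in Eed epiblast too, at 60.2 to 108 CPM against at most 56.9 CPM (0.75 ± 0.16, adjusted p = 0.000970, lost with all groups in 1 fit, 0.0736), and was at 41.2 to 59.8 CPM with Rnf2 (0.29 ± 0.17, adjusted p = 0.206). No member passed between Eed and Rnf2 epiblast among 9 tested (edgeR, 3.96% of 10831 genes, 1 member at an unadjusted p under 0.05), where DESeq2 called Sfrp1. Dkk4 and Dkk1, inhibitors of the co-receptors, had too few reads for the filter and passed without it. Dkk4 was at 0.791 to 9.15 CPM in wild-type epiblast, at 0 to 0.410 CPM in Rnf2 epiblast (-4.66, adjusted p = 2.00e-05) and at 0 to 1.73 CPM in Eed epiblast (-3.55, adjusted p = 9.42e-05). Dkk1 had a mean of 2.56 CPM in the wild type, 0.370 CPM with Rnf2 (-2.70, adjusted p = 0.0398) and 0.374 CPM with Eed (-2.89, adjusted p = 0.0102), and 7 of 9 Eed libraries had no Dkk1 read. Wnt2b was lower in both (adjusted p = 0.0252 with Rnf2 and 0.0408 with Eed), and Wif1 was higher with Eed at a mean of 1.78 CPM. Wnt2 and Wnt10b, also called lower with Eed, had 4 wild-type reads each, of which 3 and 4 were in embryo 8. Wnt6 and Wnt10a were higher in Rnf2 epiblast, at means of 1.21 and 0.800 CPM. They were highest in embryo 8, at 2.98 and 1.99 CPM, where the ExE marker sum was 367 CPM, the highest of the epiblast libraries of that group. The wild-type BDF1xCAST epiblasts, which were less deep, had 1 and 0 reads of Wnt6 and Wnt10a. The parts of depth and of ExE cells in these 2 calls were not tested.

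The interaction of Rnf2 with tissue for Wnt6 (-4.71 ± 0.99, adjusted p = 0.00313) was lost with the embryo as a block (adjusted p = 0.106). Wnt6 had 1 read over the wild-type BDF1xCAST epiblasts and 68 over the deeper Rnf2 epiblasts, so the epiblast side of this term lies near the floor. In ExE, Wnt6 did not pass with Rnf2. For Eed, the remaining interactions were Fzd5 (1.46 ± 0.40, adjusted p = 0.01003), lower in epiblast and at 5.86 against 4.08 CPM in ExE, Fzd3 (0.92 ± 0.25, adjusted p = 0.00896) and Wnt5a (3.94 ± 1.09, adjusted p = 0.0116). In ExE, Wnt5a had 48 reads over all Eed libraries and 2 over the wild-type BDF1xCAST ones. In all, 7 of 12 members tested had an interaction with Eed (15.8% of 11463 genes) and 3 of 13 with Rnf2 (6.71% of 11354 genes). Beside these epiblast differences, the summed streak markers were 46.2 to 458 CPM in Eed epiblast and 22.4 to 265 CPM in Rnf2 epiblast, against 15.9 to 1044 CPM in the wild type. Hhex, Lefty1 and Cer1, markers of the anterior visceral endoderm, summed to 31.5 to 304 and 27.6 to 79.7 CPM against 1.69 to 62.5 CPM. The wider visceral endoderm sum (14 genes) lay within the wild-type range, at 32.4 to 84.0 and 21.7 to 126 CPM against 9.25 to 797 CPM (medians 53.5 and 33.0 against 25.7). The part of these cell types in the differences was not tested.

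**Figure D3:**
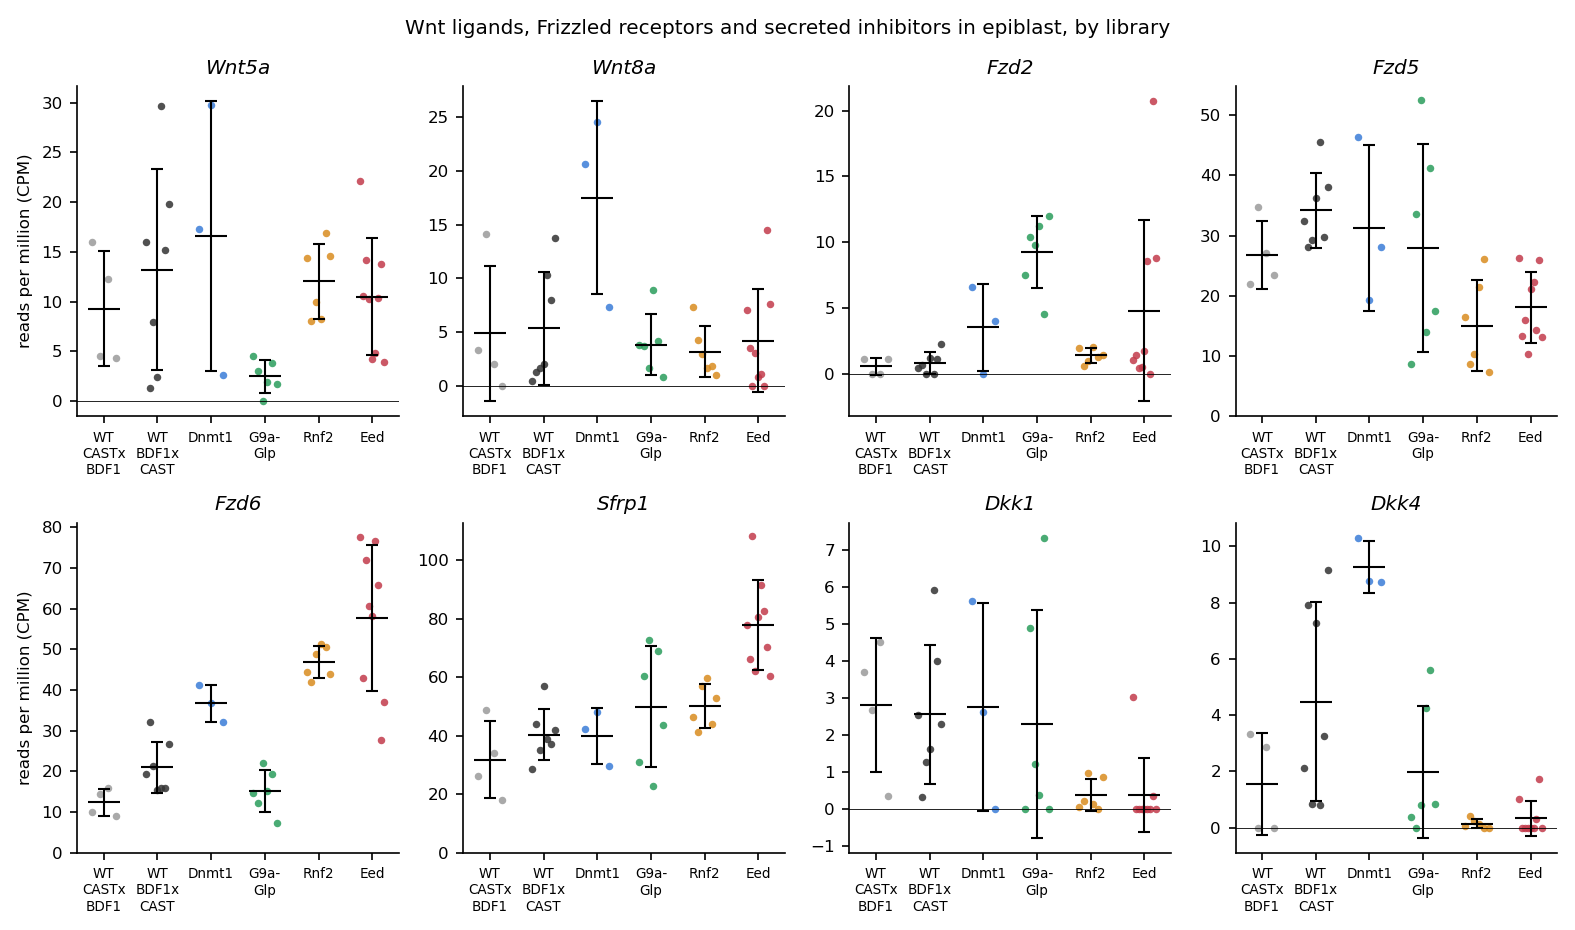
Counts per 1e6 reads (CPM) in epiblast for 8 members, 1 point per library, with the group mean (wide bar) and SD (capped line). Fzd5 is below every wild-type BDF1xCAST library in the Rnf2 and Eed groups, Dkk4 is at most 1.73 CPM in both, and Fzd2 is at 4.54 to 11.97 CPM in the G9a-Glp group against at most 2.29 CPM in the wild type.

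Of the other pathway genes, 5 were higher and 16 lower in Eed epiblast among 39 tested (median -0.35, where 36.8% of all genes passed), and 2 higher and 9 lower in Rnf2 epiblast among 41 (median -0.29, 30.9% of genes). Rspo3, an enhancer of Wnt signalling, fell from a mean of 12.4 CPM to 3.84 with Eed and 2.41 with Rnf2. Mixl1 fell from 102 CPM to 9.13 and 2.77, and Sp8 from 22.4 CPM to 6.98 and 4.05. Wls, which carries Wnt proteins to the cell surface, fell with Eed from 27.5 to 8.04 CPM, and Gsk3a rose with Rnf2 from 1.43 to 8.12 CPM. In ExE, 8 were higher and 4 lower of 33 with Eed (40.8% of all genes passed), and 5 and 5 of 31 with Rnf2 (22.2%). Rspo4 rose in Eed ExE from 0.0468 to 9.10 CPM, Rspo1 from 1.77 to 9.86 CPM and Dkkl1 from 24.0 to 166 CPM. Rspo1 and Dkkl1 rose in Rnf2 ExE as well, to 5.48 and 64.3 CPM, and the streak gene T fell there from 31.2 to 12.7 CPM. Gsk3a rose in ExE from 2.38 CPM to 11.2 with Eed and 9.87 with Rnf2. It was also higher in ExE with G9a-Glp (9.54 CPM) and Dnmt1 (11.2 CPM), and Sp8 was also lower in epiblast with these 2 (3.16 and 4.23 CPM). The knockouts of a tissue share their wild-type libraries, and the part of those libraries in these common differences was not tested.

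With loss of G9a-Glp, Fzd2 was higher and Wnt5a lower in epiblast. There 1 was higher and 1 lower of 9 tested (34.4% of 9562 genes, 19.5% higher and 14.9% lower), and 3 of 35 passed without the filter (12.8%). The receptor gene Fzd2 rose from at most 2.29 CPM in the wild type to 7.52, 10.4, 9.79, 11.2, 4.54 and 11.97 CPM in the 6 knockout libraries, with no overlap (3.48 ± 0.50, adjusted p = 5.16e-05). It held with embryos 2 and 7 left out (3.37, adjusted p = 0.00104). Fzd2 had 12 reads over the wild-type libraries and passed the filter only through the knockout, so only a rise could be called. Wnt5a fell from a median of 15.2 to 2.49 CPM (-2.41 ± 0.66, adjusted p = 0.00889), with overlapping ranges of 1.32 to 29.7 and 0 to 4.51 CPM, and held with embryos 2 and 7 left out (adjusted p = 0.0468). Without wild-type embryo 8, Wnt5a had too few reads to be tested. It had 37 reads over the knockout libraries and passed the filter mainly through the wild type, which set the direction of its call. Fzd1 was lower only without the filter (1.72 against 6.71 CPM, adjusted p = 0.00184). The streak marker sum in these 6 libraries was 34.2 to 297 CPM, and its part in the fall of Wnt5a was not tested. Fzd2 was also uneven in other knockouts of the epiblast, at 6.56, 0 and 4.03 CPM with Dnmt1 and at 8.57, 20.7 and 8.78 CPM in Eed embryos 6, 9 and 10 against at most 1.68 CPM in the other 6.

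In G9a-Glp ExE no member passed among 7 tested (edgeR, 15.1% of 9228 genes, 1 at an unadjusted p under 0.05, DESeq2 4), and 4 were higher and 1 lower of 30 without the filter (7.64% of genes, 5.09% higher and 2.54% lower). These were Wnt4, at 0 to 6.57 CPM (median 2.02) against 0 in all 7 wild-type libraries, at least 16.2-fold higher on average (adjusted p = 0.000256), Wnt11, Fzd10 and Sfrp5, and Fzd6 as the lower one. The tissues differed in the effect on Wnt5a (interaction 4.61 ± 1.30, adjusted p = 0.0277, 1 of 14 tested, 6.59% of 10931 genes), which was lost with the embryo as a block (adjusted p = 0.174) and without epiblast embryos 2 and 7 (adjusted p = 0.0586). Wnt5a had only 2 reads over all wild-type BDF1xCAST ExE libraries and 13 over those of G9a-Glp, so the ExE side of this term lies near the floor. Without wild-type epiblast embryo 8, the Fzd1 term passed as well (2.10, adjusted p = 0.0382). Of the other pathway genes, 6 were higher and 7 lower in G9a-Glp epiblast among 40 tested (34.4% of all genes passed), and 2 and 2 in ExE among 28 (15.1%). Gsk3a rose in both, to 12.2 CPM from 1.43 in epiblast and to 9.54 CPM from 2.38 in ExE, Dvl3 rose in ExE from 21.0 to 50.1 CPM, and Wls fell in both, to 8.32 and 2.01 CPM. Rspo3 and Sp8 fell in epiblast to 1.69 and 3.16 CPM, and Pygo2 fell in ExE from 29.5 to 14.6 CPM.

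Loss of Dnmt1, with 3 libraries a tissue, called few members. In epiblast 0 of 12 passed (edgeR, 14.0% of 10248 genes, 3 at an unadjusted p under 0.05, DESeq2 1, which was Fzd7), and 0 of 35 without the filter (5.32%). Without wild-type embryo 8, Fzd7 passed as lower (-0.71, edgeR adjusted p = 0.0132). Wnt8a was at 20.6, 24.5 and 7.38 CPM against 0.422 to 13.7 CPM (1.57 ± 0.71, adjusted p = 0.165), and Fzd6 at 41.3, 36.8 and 32.2 CPM against 15.3 to 32.0 CPM (0.60 ± 0.27, adjusted p = 0.165). In ExE 1 of 9 passed (18.5% of 9749 genes), and without the filter 2 of 26 (8.61%), Wnt11 and Wnt4 (1.16 against 0 CPM, adjusted p = 0.0286). Fzd1 was at 4.08, 4.09 and 7.74 CPM against 7.17 to 13.8 CPM (-1.19 ± 0.34, adjusted p = 0.0272), and was lost in 7 of 10 alternatives, among them without embryo 1 (adjusted p = 0.112), which had the most Dnmt1 reads, and without embryo 2 (0.109). Wnt7b was at 30.1, 32.7 and 61.9 CPM against at most 26.9 CPM in the wild type, without overlap, and did not pass (1.24 ± 0.46, adjusted p = 0.0737). None of 15 members had an interaction of Dnmt1 with tissue (edgeR, 0.282% of 11354 genes, 1 at an unadjusted p under 0.05, DESeq2 0). Of the other pathway genes, 2 were higher and 2 lower of 41 in epiblast (14.0% of all genes passed), Vangl2 (58.0 against 25.0 CPM), Apc (86.1 against 45.0), Ctnnb1 (856 against 1298) and Sp8 (4.23 against 22.4). In ExE 3 were higher and 2 lower of 30 (18.5% of all genes), among them Gsk3a (11.2 against 2.38 CPM), Dvl3 (56.7 against 21.0) and Ctnnb1 (331 against 475).

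Wnt11, a ligand of the polarity branch, was higher in ExE in each of the 4 knockouts without the filter. It was at 0.329 to 0.745 CPM in the 7 wild-type BDF1xCAST ExE libraries, 11 reads in all. In Dnmt1 ExE it was at 6.62, 2.92 and 4.30 CPM (2.76, adjusted p = 0.00907), and in Rnf2 ExE at 6.11, 3.99, 2.71, 4.39 and 3.14 CPM (2.81, adjusted p = 0.000144). G9a-Glp ExE spanned 0 to 7.42 CPM with a median of 3.15 (2.49, adjusted p = 0.00397), and Eed ExE 0.569 to 6.29 CPM with a median of 1.93 (1.85, adjusted p = 0.0166). The 4 comparisons share their wild-type libraries. The CASTxBDF1 wild-type ExE libraries were at 0.298, 0.537, 1.70 and 1.37 CPM. The ectoplacental cone marker sum was 802 to 1246 CPM with Dnmt1, 269 to 1332 CPM with G9a-Glp and 252 to 913 CPM in the wild type, and its part was not tested.

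**Figure D4:**
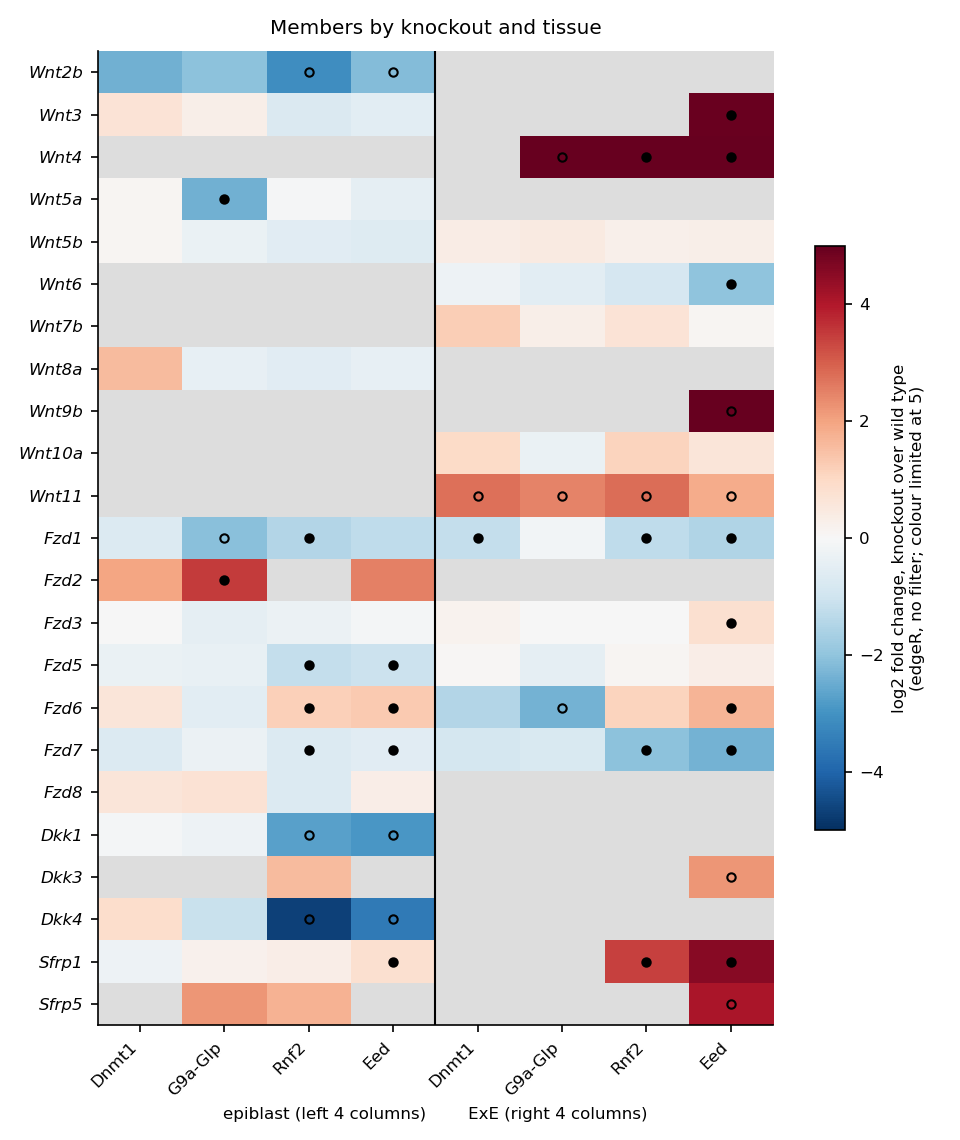
Log2 fold change of each knockout over wild-type BDF1xCAST (edgeR without the filter, colour limited at 5) for the 23 members with a group mean of at least 2 CPM in a comparison; grey marks comparisons below that. Filled points mark the 23 calls with the filter and open points 16 made only without it. Wnt4 and Sfrp1 are red in the Rnf2 and Eed columns of ExE, and Dkk4 is blue in those of epiblast.

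The reciprocal wild-type crosses did not differ in any member tested. In epiblast 0 of 10 passed (edgeR, 0.0103% of 9669 genes, 1 at an unadjusted p under 0.05, DESeq2 0) and in ExE 0 of 8 (1.04% of 9546 genes, 0 at an unadjusted p under 0.05, DESeq2 0). Without the filter the counts were 0 of 35 (0.0240%) and 0 of 27 (0.543%). The alleles gave a second reading of the same crosses. No parental bias was called for the 9 members tested in epiblast (0.319% of 8469 genes) or the 7 in ExE (0.913% of 8654 genes), by edgeR or limma. With edgeR 0 and 0 were at an unadjusted p under 0.05, and with limma 0 and 1, the latter Fzd7 (p = 0.0144). A strain bias was called for 2 of 9 in epiblast (42.9% of genes) and 3 of 7 in ExE (49.2% of genes).

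The strain term is measured from equal shares of both alleles, and the difference from the mean over all reads was not tested. In epiblast, Sfrp1 had 68.6% ± 5.46 (SD, n = 7) of its reads from BDF1 in BDF1xCAST and 67.7% ± 5.55 (n = 4) in CASTxBDF1, against a mean of 57.7% over all autosomal reads (strain term 1.11, log2, edgeR, adjusted p = 8.81e-07). Wnt5a had 66.8% ± 15.2 (n = 5) and 78.9% ± 14.4 (n = 4) from BDF1 (1.37, edgeR adjusted p = 0.00231). In ExE, Wnt6 had 66.8% ± 8.62 (n = 7) and 66.1% ± 7.44 (n = 4) from BDF1, against 57.1% over all reads (0.97, edgeR adjusted p = 0.000172). Fzd1 had 33.7% ± 11.1 and 24.6% ± 10.4 (-1.27, edgeR adjusted p = 0.000130), and Fzd3 34.2% ± 5.29 and 38.3% ± 16.0 (-0.85, edgeR adjusted p = 0.00176), with 7 and 4 libraries. The bias kept the same strain in both crosses for these 5 genes.

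The remaining members gave little to measure. Wnt1, Wnt2, Wnt3a, Wnt8b, Dkk2 and Sfrp4 had 6, 5, 2, 12, 18 and 29 reads over all 72 libraries, and Wnt10b, Wnt16, Wnt9a and Fzd4 had 31, 34, 52 and 80. Wif1, Fzd9, Fzd10 and Fzd8 had 129, 197, 237 and 422 reads. A gene with no read here may lack polymorphic positions, and its level is not known.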

How the data were processed

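RNA-seq libraries of 72 hand-dissected epiblasts and ExE were analysed. Reads were aligned with STAR 2.5.0 and counted with HTSeq on mm10, per the submitters' processing notes. The authors deposited, for each library and gene, the count of reads over positions that differ between the parental strains, with an allelic ratio and an allelic score. The smallest deposited count was 1, and a gene not listed in a library was taken as 0. The whole reads of each allele were recovered from the count, ratio and score for 99.494% of scored values (within 0.01). Values at the limit of the score hold 7.73% of reads. The members and gene lists were chosen with earlier results of these data known.

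Counts were tested with edgeR 4.0.16 (R 4.3.3), using the quasi-likelihood test, TMM scaling and filterByExpr with a minimum count of 10, and p-values were adjusted over all genes tested (Benjamini-Hochberg, threshold 0.05, 2-sided). Only the groups compared entered each fit, and a term for genotype by tissue tested differences between tissues. A gene near 0 in 1 group passes the filter only through the other, which sets the direction in which it can be called. CPM are counts scaled to the library total, and a fold against a group at 0 uses a floor of 3 reads over the group. Alleles were tested with edgeR for autosomal genes with at least 10 reads in 3 libraries of each cross, with a term per library, a strain term and a parental term. The alternatives were DESeq2 1.42.0, limma 3.58.1 for the alleles, scaling to the library total, no filter, a sex term, an embryo block, all groups in 1 fit, thinned Rnf2 libraries and libraries left out. Members called in a comparison are named there, with per-library values for those with larger changes and at least 5 CPM. The fits were tested on simulated counts before use.

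Epiblast and ExE libraries with the same embryo label were taken to come from 1 embryo. For some Eed embryos the number in the sample title and the embryo label disagree between the tissues, and the label was used for the block. The correlation of their deviations was 0.0238 to 0.414 over the 7 wild-type BDF1xCAST pairs (median 0.195) and 0.0370 to 0.330 over the 4 CASTxBDF1 pairs. Embryos are separate animals, and library depth sets the counting error.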

Additional observations from a re-analysis of the deposited data

Results flagged for a closer look

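Of 72 sets of 1 member in 1 group of 4 to 10 libraries, 9 held a library far from the others by Dixon's criterion, which chance gives in about 1 in 20 sets. In epiblast these were Wnt3 in Eed embryo 9 (18.7 CPM) and Wnt5b in G9a-Glp embryo 2 (33.6 CPM), wild-type BDF1xCAST embryo 8 (50.3 CPM) and wild-type CASTxBDF1 embryo 1 (30.8 CPM). In ExE they were Wnt4 in Rnf2 embryo 4 (18.2 CPM), Wnt6 in Rnf2 embryo 7 (13.1 CPM) and in wild-type BDF1xCAST embryo 6 (25.7 CPM), Fzd3 in G9a-Glp embryo 7 (30.6 CPM) and Fzd5 in Eed embryo 7 (0.934 CPM).

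The effect of a knockout differed between ExE and epiblast, by the interaction term in edgeR, for 11 combinations of member and knockout. The log2 terms (ExE minus epiblast) were 4.61 for Wnt5a with G9a-Glp. With Rnf2 they were -1.32 for Fzd7, -4.71 for Wnt6, whose epiblast side lies near the floor, and 3.15 for Sfrp1. With Eed they were -1.76 for Fzd7, 1.46 for Fzd5, 7.99 for Wnt4, 3.82 for Sfrp1, 5.56 for Wnt3, 3.94 for Wnt5a and 0.92 for Fzd3.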

How the results depend on the processing

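Of 58 calls of 1 member in 1 comparison, 41 held under every alternative that tested them, 17 were lost under at least 1 and 0 reversed. Most members have few reads over polymorphic positions, so the filter sets how many can be called. With DESeq2 the number of members called was 17 in place of 7 between wild-type BDF1xCAST tissues, 1 in place of 0 for Dnmt1 epiblast and 2 in place of 1 for Dnmt1 ExE. It was 4 for G9a-Glp ExE (0 with edgeR), 8 for Rnf2 epiblast (4), 9 for Eed epiblast (4), 14 for Eed ExE (8), 2 for the G9a-Glp interaction (1) and 5 for the Rnf2 interaction (3). Without the filter these comparisons gave 20 (wild type), 2 (Dnmt1 ExE), 5 (G9a-Glp ExE), 9 (Rnf2 epiblast), 10 (Eed epiblast) and 18 (Eed ExE). With all groups in 1 fit they gave 18 (wild type), 4 (G9a-Glp epiblast, 2 in the main test), 5 (G9a-Glp ExE), 9 (Rnf2 epiblast), 8 (Eed epiblast), 14 (Eed ExE) and 2 (G9a-Glp interaction). Sfrp1 was the 1 call between Eed and Rnf2 epiblast with DESeq2, library total scaling, all groups in 1 fit, thinned Rnf2 libraries or the block. A sex term gave 3 for Dnmt1 ExE, and a minimum of 20 reads gave 1 strain bias in epiblast in place of 2. Sfrp1 in Eed epiblast was lost with all groups in 1 fit (adjusted p = 0.0736), and Fzd7 there with library total scaling (adjusted p = 0.0794), all groups in 1 fit (0.0585) or the number as a block (0.0512). Library total scaling moves the median of all genes in Eed epiblast by 0.19. Such shifts were over 0.1 in the Dnmt1 comparisons (0.21 and 0.25), Eed ExE (0.16) and Eed against Rnf2 (0.10 and 0.11).

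Leaving out 1 library gave 0 to 1 calls for Dnmt1 ExE and 4 to 5 for Eed against Rnf2 ExE. Without the 6 libraries that held the highest level of the targeted gene, the counts were 0 for Dnmt1 ExE, 0 for the G9a-Glp interaction and 1 for Eed against Rnf2 ExE. An alternative chosen after seeing the data, without wild-type BDF1xCAST epiblast embryo 8, gave 1 for Dnmt1 epiblast (Fzd7), 1 for G9a-Glp epiblast and 2 for the G9a-Glp interaction.

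With the embryo as a block, the G9a-Glp interaction gave 0 calls. Between genotypes the embryos share only a number, and their deviations correlated above 0.1 in 0 of 3 pairs for Dnmt1 ExE, 1 of 5 for Rnf2 epiblast and 0 of 4 for Rnf2 ExE. In Eed against Rnf2 epiblast, 5 of 6 did (-0.13 to 0.22), and 5 libraries correlated best with their own number. The number as a block gave 1 call for Dnmt1 epiblast (Wnt8a), 0 for Dnmt1 ExE, 2 for Rnf2 epiblast, 2 for Rnf2 ExE, 1 for Eed against Rnf2 epiblast and 4 for Eed against Rnf2 ExE.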
